A study of Mus musculus with 72 samples.

Results

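The measurements cover 7 of the 20105 genes in a table of liver read counts: Cux2, Prlr, Sult1e1, Sult3a1, Sult2a7, Fmo2 and Cyp17a1. They are hepatocyte genes that pulsatile growth hormone is known to hold low in mice. They were picked by symbol as genes gained in cachexia with earlier results of these data known, so the comparisons of cachectic with PBS animals describe them and test nothing, and the p-values of other comparisons are not independent of those earlier results. All 7 genes passed the filter on low counts in the fits over all groups, and Sult3a1 passed it through libraries of cachectic animals alone.

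Nuclei came from livers of 36 Hep-INTACT mice (genotype CAG-Sun1/sfGFP, Albumin-Cre), in which Cre under the albumin promoter puts a GFP-marked protein into the nuclear envelope of hepatocytes, so that beads can capture their nuclei. Each animal gave 2 libraries, one of bead-bound hepatocyte nuclei and one of all liver nuclei, here called whole liver nuclei, in 18 groups of 4 animals. BALB/c mice bore C26 tumours with cachexia, bore C26 tumours at a pre-cachexia stage, or had received PBS. C57BL/6N mice bore 8025 tumours with cachexia or had received PBS. Tumours that leave body weight stable were NC26 in BALB/c mice and MC38 in C57BL/6N mice, each with its own PBS group. Cachexia livers were taken after a body weight loss of over 10%, and zeitgeber time 9 h is given for the collection. Age and sex are not given in the sources used here; 4 Y-linked genes were detected in all 72 libraries, with a summed level of 462.6 to 1061 CPM, counts of a gene scaled to the size of its library.

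Hepatocyte libraries held 8.49 to 56.4 M counts and whole liver libraries 12.2 to 30.3 M. Markers of other liver cells were lower in hepatocyte than in whole liver nuclei of the C26 PBS animals: the sum over 10 endothelial markers was 178 to 298 CPM in hepatocyte nuclei against 1213 to 1412 CPM in whole liver nuclei, and the sum over 10 macrophage markers was 42.6 to 70.7 CPM against 325 to 434 CPM. The sum over 8 cholangiocyte markers was 129.8 to 226 CPM against 174 to 219 CPM, and these ranges overlapped. The 7 hepatocyte markers in the table were present in every group. In C26 PBS animals their sum was not higher in hepatocyte nuclei, at 10900 to 15030 CPM, than in whole liver nuclei, at 14510 to 20910 CPM. These CPM are scaled within each kind of nuclei. In hepatocyte nuclei the sum was lower in C26 pre-cachexia animals, at 7827 to 9699 CPM, than in C26 PBS animals.

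In male rodents the pituitary releases growth hormone in pulses, and each pulse activates the transcription factor STAT5B in hepatocytes through the growth hormone receptor and the kinase JAK2. The pulses keep on a set of male-biased liver genes and keep down a set of female-biased genes, among them Cux2, the gene of a female-specific transcriptional regulator of the mouse liver. When the pulses or the response to them are lost, the female-biased genes come up and the male-biased genes go down.

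The promoters are shown because STAT5 proteins bind a palindrome spelled TTCNNNGAA. RefSeq promoter windows, from 250 bases before to 50 bases after each start, were found for 5 of the 7 genes, 9 windows in all on GRCm38.p6, and 3 of the 9 held the palindrome (it reads the same on both strands). Among all 32851 mouse promoter windows of that length, 8.30% held it. Several of the 9 windows belong to the same gene and those of Fmo2 overlap, so they are not independent of each other. The same ends TTC and GAA with 4 bases between them, in place of 3, were in none of the 9 and in 6.95% of all windows. The 3 windows with a match, and those of Sult1e1 and Cux2 without one, read as follows, 5′ to 3′ on the gene's strand, with the match in capitals.
Sult3a1 (chr10:33857472-33857771, plus strand): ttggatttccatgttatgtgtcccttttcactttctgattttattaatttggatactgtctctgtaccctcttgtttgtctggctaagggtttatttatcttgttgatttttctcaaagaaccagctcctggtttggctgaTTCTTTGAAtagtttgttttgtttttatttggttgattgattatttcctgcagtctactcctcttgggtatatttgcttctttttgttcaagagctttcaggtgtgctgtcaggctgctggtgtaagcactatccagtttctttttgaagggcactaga
Prlr second promoter (chr15:10223656-10223955, plus strand): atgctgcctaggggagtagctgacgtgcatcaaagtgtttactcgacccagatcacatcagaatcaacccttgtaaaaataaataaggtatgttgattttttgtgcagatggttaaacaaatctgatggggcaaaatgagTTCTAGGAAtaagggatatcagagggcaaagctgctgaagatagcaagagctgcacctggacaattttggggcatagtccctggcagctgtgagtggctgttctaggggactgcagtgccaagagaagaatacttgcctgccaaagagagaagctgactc
Fmo2 second promoter (chr1:162898444-162898743, minus strand): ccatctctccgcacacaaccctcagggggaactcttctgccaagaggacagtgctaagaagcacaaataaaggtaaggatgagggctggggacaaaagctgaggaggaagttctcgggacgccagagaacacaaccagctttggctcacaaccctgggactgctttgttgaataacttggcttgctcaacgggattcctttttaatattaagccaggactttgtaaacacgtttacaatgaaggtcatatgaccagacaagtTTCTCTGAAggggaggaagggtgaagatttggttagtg
Sult1e1 (chr5:87591562-87591861, minus strand): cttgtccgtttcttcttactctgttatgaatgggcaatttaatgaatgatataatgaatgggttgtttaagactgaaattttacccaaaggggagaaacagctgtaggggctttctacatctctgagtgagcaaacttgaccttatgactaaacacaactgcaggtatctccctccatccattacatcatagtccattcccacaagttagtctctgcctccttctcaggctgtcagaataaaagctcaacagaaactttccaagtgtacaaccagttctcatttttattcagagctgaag
Cux2 second promoter (chr5:122047776-122048075, minus strand): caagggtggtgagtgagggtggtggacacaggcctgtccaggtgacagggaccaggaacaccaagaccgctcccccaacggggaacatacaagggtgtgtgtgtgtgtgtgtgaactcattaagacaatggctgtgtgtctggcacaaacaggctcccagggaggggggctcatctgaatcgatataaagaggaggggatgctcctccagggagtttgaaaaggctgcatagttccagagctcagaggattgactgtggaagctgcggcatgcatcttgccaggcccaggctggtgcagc
The match began at position -109 from the start in Sult3a1, at -110 in the second promoter of Prlr and at 13 in the second promoter of Fmo2. A match is a string of letters and was not tested for binding.

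The first question was how the level of each gene compared with PBS animals in the 2 cachexia models. In hepatocyte nuclei of C26 cachectic animals every one of the 4 values of each of the 7 genes lay above every PBS value. In 8025 cachectic animals that held for Sult1e1 and Prlr only. The call of an adjusted p under 0.05 was met by 7 of 7 genes in C26 hepatocyte nuclei, where 22.2% of all genes tested were called, and by 4 of 7 in 8025 hepatocyte nuclei, where 29.3% were called (edgeR quasi-likelihood test, Benjamini-Hochberg adjustment). In whole liver nuclei 7 of 7 were called in C26 animals (22.1% of all genes) and 5 of 7 in 8025 animals (36.6%), or 2 of 7 when only the 8025 groups were fitted. Nothing is read from these counts, since the genes were picked for their gain in cachexia. No share of all genes without overlap is given here, so the counts without overlap are a description only.

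**Figure D1:**
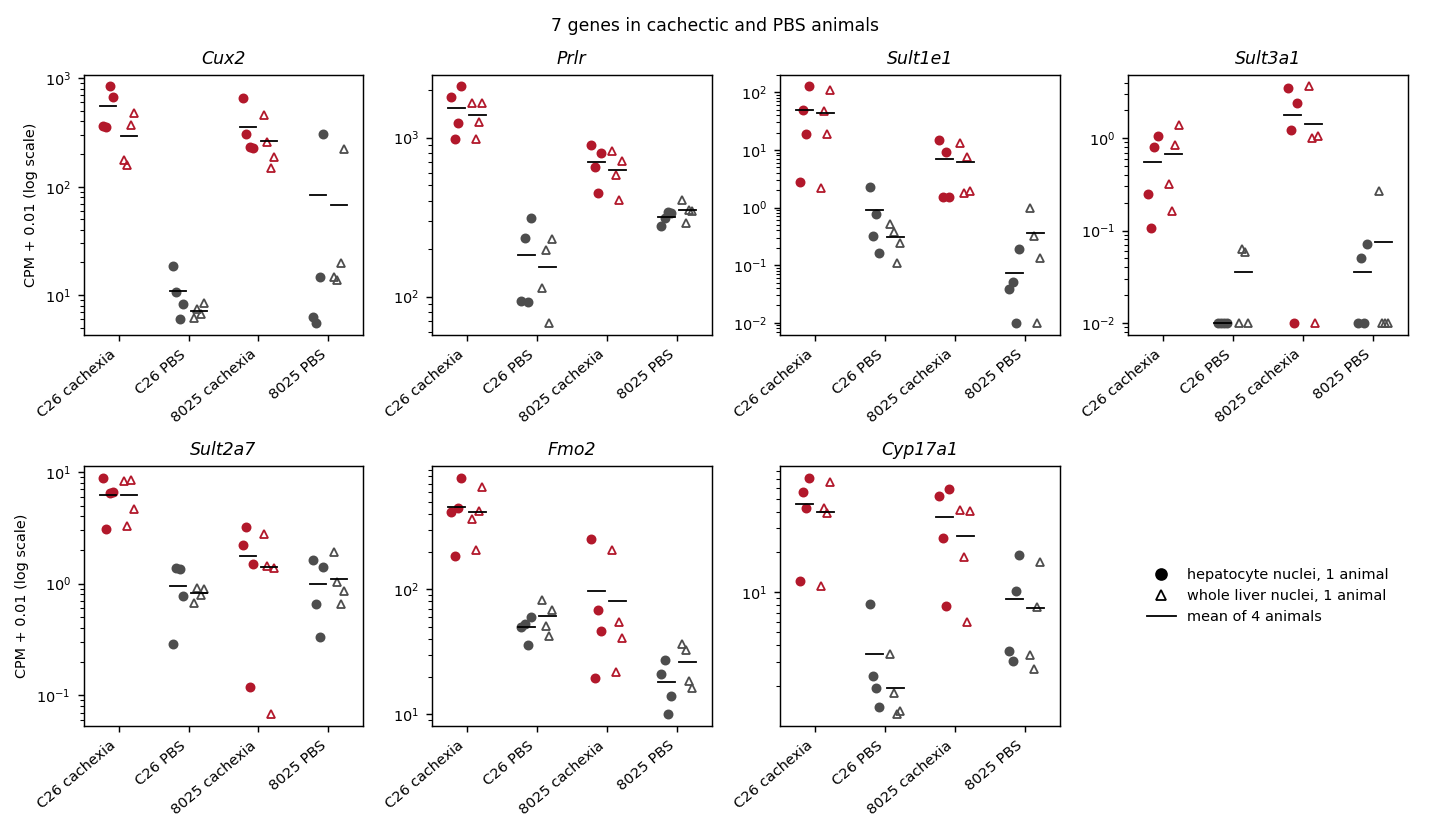
Level of each gene in CPM plus 0.01 on a log axis, with 1 point per animal, filled circles for hepatocyte nuclei, open triangles for whole liver nuclei and bars for the mean of 4 animals. C26 cachectic animals stood above C26 PBS animals in hepatocyte nuclei for all 7 genes, whereas 8025 PBS animal 4, at 307 CPM, lay among the 8025 cachectic animals for Cux2.

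Of the 2 regulatory genes, Cux2 (chromosome 5, 121860216 to 122047825 on mm10, minus strand) had 359.8, 358.9, 843 and 675 CPM in hepatocyte nuclei of C26 cachectic animals, against 18.7, 10.7, 6.00 and 8.33 CPM in C26 PBS animals. The lowest cachectic value was far above the highest PBS value. The log2 fold change was 5.68 (SE 1.21), or 51.2-fold. In 8025 animals the values were 662, 308, 233 and 229 CPM with cachexia, against 6.24, 5.55, 14.5 and 307 CPM with PBS. A single PBS animal, number 4, reached the cachectic range while the other 3 stayed at or under 14.5 CPM. The same animal had 221 CPM in whole liver nuclei, where the other 3 PBS animals had 13.7 to 19.6 CPM. The log2 fold change of Cux2 in 8025 hepatocyte nuclei was 2.10 (SE 1.03) with all animals and 5.40 without that animal.

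PBS animal 4 of the 8025 cohort was also high for other female-biased genes. Of 20 further female-biased or growth hormone repressed genes that averaged 1 CPM or more in its group, it was the highest of 4 animals in 12 in hepatocyte nuclei, with a median log2 ratio of 0.90 to the mean of the other 3 (computed on CPM plus 1). Its male-biased genes did not set it apart: of 21 it was the lowest of 4 animals in 9 and the highest in 6, and the median log2 ratio of -0.31 was close to the -0.28 of animal 1. Its Prlr level, 338 CPM, lay within the range of the other 3, 277 to 339 CPM. Being highest for many female-biased genes was not particular to this animal. In hepatocyte nuclei C26 pre-cachexia animal 4 was the highest of its group in 14 of 20, NC26 tumour animal 3 in 11 of 18 and C26 PBS animal 4 in 10 of 17. Their median log2 ratios were smaller, at 0.755, 0.426 and 0.242.

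Prlr (chromosome 15, 10177238 to 10337020, plus strand) encodes the prolactin receptor, which in the mouse liver is female-biased. It had 1804, 976, 1237 and 2097 CPM in hepatocyte nuclei of C26 cachectic animals, against 94.5, 233, 93.0 and 314 CPM in C26 PBS animals. The groups did not overlap, and the log2 fold change was 3.06 (SE 0.59). In 8025 animals it had 894, 656, 449 and 798 CPM with cachexia, against 277, 313, 339 and 338 CPM with PBS. These groups did not overlap either, but the log2 fold change was smaller, at 1.14 (SE 0.55). Prlr overlaps Gm21973, a gene model on the same strand, over 11641 bases in the GENCODE M21 annotation, so some reads counted for it may belong to that model.

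Of the 3 sulfotransferases, which attach a sulfate group to small molecules, Sult1e1 (chromosome 5, 87575968 to 87591611, minus strand) inactivates oestrogens. Its level was 2.72, 49.2, 18.8 and 127 CPM in hepatocyte nuclei of C26 cachectic animals, against 2.28, 0.315, 0.771 and 0.154 CPM in C26 PBS animals. The cachectic animals spread over the widest range of the 7 genes relative to their lowest value, and animal 1 lay just above PBS animal 1. The log2 fold change was 5.86 (SE 0.92), and ranged from 4.75 without cachectic animal 4 to 6.91 without PBS animal 1. In 8025 animals the values were 15.1, 1.53, 9.25 and 1.52 CPM with cachexia, against 0.0281, 0.0402, 0 and 0.182 CPM with PBS. The PBS values rest on few reads, and the log2 fold change of 6.76 (SE 1.28) has a 95% interval of 4.16 to 9.37.

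Sult3a1 (chromosome 10, 33857722 to 33879475, plus strand) belongs to a family that acts on amines and was barely detected outside cachexia. In hepatocyte nuclei of C26 cachectic animals it had 6, 3, 22 and 39 counts (0.240, 0.0967, 0.792 and 1.05 CPM), against 0 counts in all 4 C26 PBS animals. With 3 counts over the PBS group as the limit that a count of 0 allows, the level was at least 19.2-fold higher with cachexia. In 8025 animals it had 94, 23, 0 and 49 counts with cachexia, against 2 counts over the 4 PBS animals, a ratio of 76.6 with a 95% counting interval of 20.9 to 638. Cachectic animal 3 had no count in either kind of nuclei. Of the 50-base windows of the longest Sult3a1 transcript, 6.15% also occur in Sult3a2, a neighbour in the family, so part of the exonic signal cannot be given to a single gene. Intervals and limits cover counting error only.

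Sult2a7 (chromosome 7, 14465159 to 14492926, minus strand) belongs to the hydroxysteroid sulfotransferases. Its values were 8.87, 3.06, 6.41 and 6.67 CPM in hepatocyte nuclei of C26 cachectic animals, against 0.279, 1.37, 1.33 and 0.771 CPM in C26 PBS animals. All cachectic values were above all PBS values, with a log2 fold change of 2.72 (SE 0.66). In 8025 animals it had 2.21, 3.21, 0.109 and 1.48 CPM with cachexia, against 1.60, 0.643, 0.323 and 1.39 CPM with PBS. The 8025 groups overlapped, and cachectic animal 3 was the lowest of all 8 animals; the log2 fold change was 0.72 (SE 0.67).

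Of the 2 oxidases, Fmo2 (chromosome 1, 162875047 to 162898712, minus strand) encodes a flavin-containing monooxygenase. It had 413, 185, 443 and 781 CPM in hepatocyte nuclei of C26 cachectic animals, against 50.3, 52.3, 35.5 and 60.3 CPM in C26 PBS animals, a log2 fold change of 3.20 (SE 0.57). In 8025 animals it had 254, 19.6, 68.3 and 46.3 CPM with cachexia, against 20.8, 27.3, 10.0 and 13.9 CPM with PBS. Animal 1 lifted the 8025 mean, and animal 2 lay among the PBS animals. The log2 fold change was 2.42 (SE 0.56), and 1.29 without cachectic animal 1.

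Cyp17a1 (chromosome 19, 46667165 to 46673000, minus strand) encodes the 17-alpha-hydroxylase of steroid hormone synthesis, an enzyme best known from adrenal gland and gonads. It had 12.1, 55.5, 42.6 and 71.6 CPM in hepatocyte nuclei of C26 cachectic animals, against 8.10, 2.35, 1.93 and 1.39 CPM in C26 PBS animals. Animal 1 was the lowest cachectic and animal 1 the highest PBS value, and the log2 fold change was 3.74 (SE 0.70), or 4.57 without PBS animal 1. In 8025 animals it had 52.4, 25.4, 7.90 and 59.4 CPM with cachexia, against 3.60, 3.06, 10.2 and 18.9 CPM with PBS. The groups overlapped through cachectic animal 3 and PBS animals 3 and 4. The log2 fold change was 2.05 (SE 0.65).

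Per kilobase of counted gene length, which spans exons and introns, Fmo2 had the highest mean in hepatocyte nuclei of C26 cachectic animals, 19.2 CPM per kb. Reads of exons and introns were not separated, so levels of different genes compare only roughly. Prlr followed with 9.57, Cyp17a1 with 7.79, Sult1e1 with 3.16 and Cux2 with 2.98 CPM per kb. Sult2a7, at 0.225 CPM per kb, and Sult3a1, at 0.0251 CPM per kb, were far lower. In C26 PBS animals Fmo2 was also the highest, at 2.10 CPM per kb, and Prlr followed at 1.15 CPM per kb.

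Within the cachectic groups some animals were high for several genes at once. Cachectic animal 1 of the 8025 cohort was the highest of its group for 5 of 7 genes in hepatocyte nuclei and for 7 of 7 genes in those of whole liver, and animal 3 was the lowest for 4 of 7 and 5 of 7. In the C26 cohort, cachectic animal 4 was the highest in hepatocyte nuclei for 4 of the 6 genes that averaged 1 CPM or more, and animal 2 the lowest for 4 of 6. The 2 libraries of an animal share its tissue and are not independent.

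The contrast between the models was the difference of the log2 fold changes, C26 minus 8025. In hepatocyte nuclei it was 3.57 (SE 1.45, 95% interval 0.61 to 6.53) for Cux2, 1.92 (SE 0.78, 0.33 to 3.50) for Prlr and 2.0 (SE 0.93, 0.10 to 3.90) for Sult2a7. It was 1.69 (SE 0.90, -0.15 to 3.53) for Cyp17a1, 0.78 (SE 0.75, -0.74 to 2.31) for Fmo2 and -0.91 (SE 1.76, -4.50 to 2.69) for Sult1e1. No fitted difference is given for Sult3a1, whose C26 PBS group was at 0. These differences are made from the cachexia contrasts for which the genes were picked. The calls that follow therefore describe them and test nothing. None of the 7 passed the edgeR call in hepatocyte nuclei, where 0.957% of all genes did (3 of the 7 had an unadjusted p under 0.05 and DESeq2 called 0), and only Cux2 passed it in whole liver nuclei, where 6.57% did (DESeq2 called 4). Cux2 did not pass it there with the replicate number as a block, with only these 4 groups fitted, or without C26 cachectic animal 4, 8025 cachectic animal 3 or 8025 PBS animal 4. For Cux2 the value rests on PBS animal 4 of the 8025 cohort: without it the difference was 0.28 in hepatocyte and 1.33 in whole liver nuclei. For Fmo2 it rests on cachectic animal 1 of the 8025 cohort: without it the difference was 1.89 in hepatocyte and 2.18 in whole liver nuclei, against 0.78 and 1.14 with all animals.

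**Figure D2:**
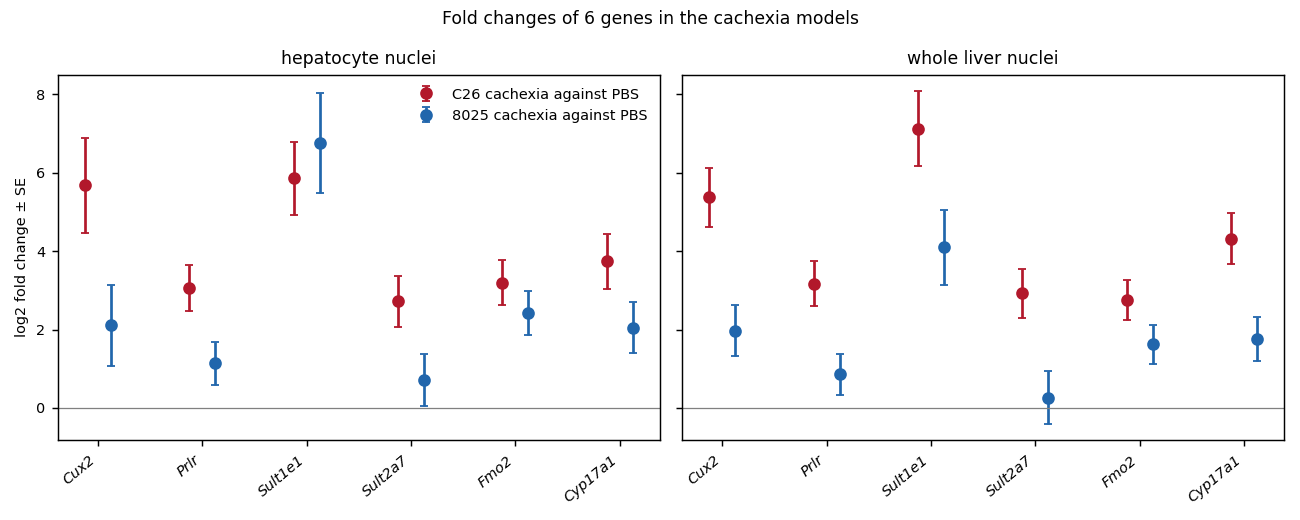
Log2 fold change of cachectic against PBS animals with its SE for 6 genes (Sult3a1 is left out because its C26 PBS group had no count), in hepatocyte nuclei on the left and whole liver nuclei on the right, with C26 in red and 8025 in blue. In whole liver nuclei all 6 values were larger in C26 than in 8025 animals, and in hepatocyte nuclei all but Sult1e1 were.

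In whole liver nuclei the differences were 3.40 (SE 0.93) for Cux2, 3.03 (SE 1.53) for Sult1e1, 2.66 (SE 0.92) for Sult2a7, 2.56 (SE 0.82) for Cyp17a1, 2.32 (SE 0.76) for Prlr and 1.14 (SE 0.69) for Fmo2. Sult1e1 therefore changed sign between the kinds of nuclei, at -0.91 in hepatocyte and 3.03 in whole liver nuclei. Its 8025 PBS values were 0 to 0.182 CPM in hepatocyte and 0 to 0.980 CPM in whole liver nuclei. Each model had its own strain, so tumour and strain cannot be told apart in these differences.

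The second question was whether the genes were already high before cachexia. Of the 7 genes, Sult2a7 and Prlr were called higher in C26 pre-cachexia animals than in PBS animals, in both kinds of nuclei, where 7.72% of all genes were called in hepatocyte and 12.8% in whole liver nuclei, and 4.78% and 8.72% were called higher. The PBS animals are the ones of the C26 cachexia contrast. The sum over the 7 hepatocyte markers was lower without overlap at this stage in both kinds of nuclei, at 8684 to 11100 CPM against 14510 to 20910 CPM in PBS animals for whole liver nuclei, and its part in these results was not tested. Sult2a7 had 12, 6.67, 1.85 and 2.71 CPM in hepatocyte nuclei of pre-cachexia animals, against 0.279, 1.37, 1.33 and 0.771 CPM in PBS animals, with no overlap. Its log2 fold change was 2.61 (SE 0.66, adjusted p = 0.0143, edgeR). The log2 difference in Sult2a7 between cachectic and pre-cachexia animals was 0.11 (SE 0.59, 95% interval -1.10 to 1.31), which allows a difference in either direction. It rests on pre-cachexia animal 1, the highest of the group: without it the difference was 0.70 in hepatocyte nuclei, and 0.85 against -0.02 with all animals in whole liver nuclei.

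Prlr had 369.6, 311, 669 and 1407 CPM in hepatocyte nuclei of pre-cachexia animals, against 94.5, 233, 93.0 and 314 CPM in PBS animals. Only pre-cachexia animal 2 lay below the highest PBS animal. The log2 fold change of Prlr was 1.91 (SE 0.56, adjusted p = 0.0332, edgeR), and the further difference from pre-cachexia to cachectic animals was 1.15 (SE 0.55). Prlr was not called without pre-cachexia animal 4 (log2 fold change 1.28, adjusted p = 0.173), nor without any of PBS animals 1, 2 and 3 (adjusted p = 0.0679, 0.0644 and 0.118). Sult2a7 was not called without pre-cachexia animal 1 (2.0, adjusted p = 0.0966). With only these 2 groups fitted, neither was called (adjusted p = 0.0576 for Sult2a7 and 0.102 for Prlr, edgeR).

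In whole liver nuclei the log2 fold changes at pre-cachexia were 2.95 (SE 0.63, adjusted p = 0.00216, edgeR) for Sult2a7 and 2.09 (SE 0.55, adjusted p = 0.0117) for Prlr; Prlr was 1.58 with adjusted p = 0.0689 without pre-cachexia animal 4. The other 5 genes were not called at this stage. Cux2 had 34.0, 8.67, 9.03 and 22.3 CPM in whole liver nuclei of pre-cachexia animals, against 6.18, 7.41, 6.72 and 8.39 CPM in PBS animals, without overlap (log2 fold change 1.36, SE 0.67, adjusted p = 0.178, edgeR). Cux2 had 62.2, 5.25, 3.96 and 21.7 CPM in hepatocyte nuclei of pre-cachexia animals, on both sides of the 6.00 to 18.7 CPM of PBS animals. Sult1e1 had 0.0996 to 0.661 CPM against 0.154 to 2.28 CPM, and Cyp17a1 0.540 to 3.09 CPM against 1.39 to 8.10 CPM. Their log2 fold changes were -1.35 (SE 1.02) and -1.30 (SE 0.71), against 5.86 and 3.74 in cachectic animals. Fmo2, at 41.3 to 127 CPM, overlapped the PBS range of 35.5 to 60.3 CPM. Sult3a1 had 3 counts over the pre-cachexia group and 0 over the PBS group.

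Between cachectic and pre-cachexia animals, which share tumour and strain, the log2 differences in hepatocyte nuclei were 7.20 (SE 1.0) for Sult1e1, 5.04 (SE 0.75) for Cyp17a1, 4.59 (SE 1.15) for Cux2 and 2.51 (SE 0.55) for Fmo2. No value of these 4 genes in a pre-cachexia animal reached the lowest cachectic value. Of the 7 genes, 5 met the call in hepatocyte nuclei (9.09% of all genes did) and 4 in whole liver nuclei (11.6%). These are descriptions, since the genes were picked for their gain in cachexia.

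The third question was whether a tumour without weight loss moved the genes. None of the 7 was called in NC26 or MC38 tumour animals against their PBS animals in either kind of nuclei (edgeR); 0.324% and 0% of all genes were called in hepatocyte and 0.728% and 0% in whole liver nuclei. Of the 7, only Sult2a7 in NC26 hepatocyte nuclei had an unadjusted p under 0.05, which makes 1 in that comparison and 0 in each of the other 3, and DESeq2 called 0 in all 4. Over all genes in MC38 animals, 572 in hepatocyte and 790 in whole liver nuclei had an unadjusted p under 0.05, and DESeq2 called 6 and 14.

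Sult2a7 had 2.48, 1.71, 3.31 and 5.26 CPM in hepatocyte nuclei of NC26 tumour animals, against 1.46, 0.677, 1.45 and 1.27 CPM in NC26 PBS animals. The groups did not overlap, but the log2 fold change of 1.39 (SE 0.64) had an adjusted p of 0.380 (edgeR). Prlr had 773, 249.9, 1924 and 292 CPM in NC26 tumour animals, against 549.8, 275, 323 and 411 CPM in PBS animals; a single tumour animal, number 3, reached the 976 to 2097 CPM of C26 cachectic animals, which share its strain, and it did so in whole liver nuclei too, at 1576 CPM. Tumour animal 1 and PBS animal 1 lay within the 449 to 894 CPM of 8025 cachectic animals. Cux2 had 4.28, 87.3, 63.2 and 8.31 CPM in MC38 tumour animals, against 18.6, 24.7, 4.08 and 1.98 CPM in MC38 PBS animals. Animals 2 and 3 were above every PBS animal there, and the log2 fold change was 1.71 (SE 1.03, 95% interval -0.39 to 3.82). Sult1e1 stayed at or under 0.806 CPM in every NC26 and MC38 hepatocyte library.

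**Figure D3:**
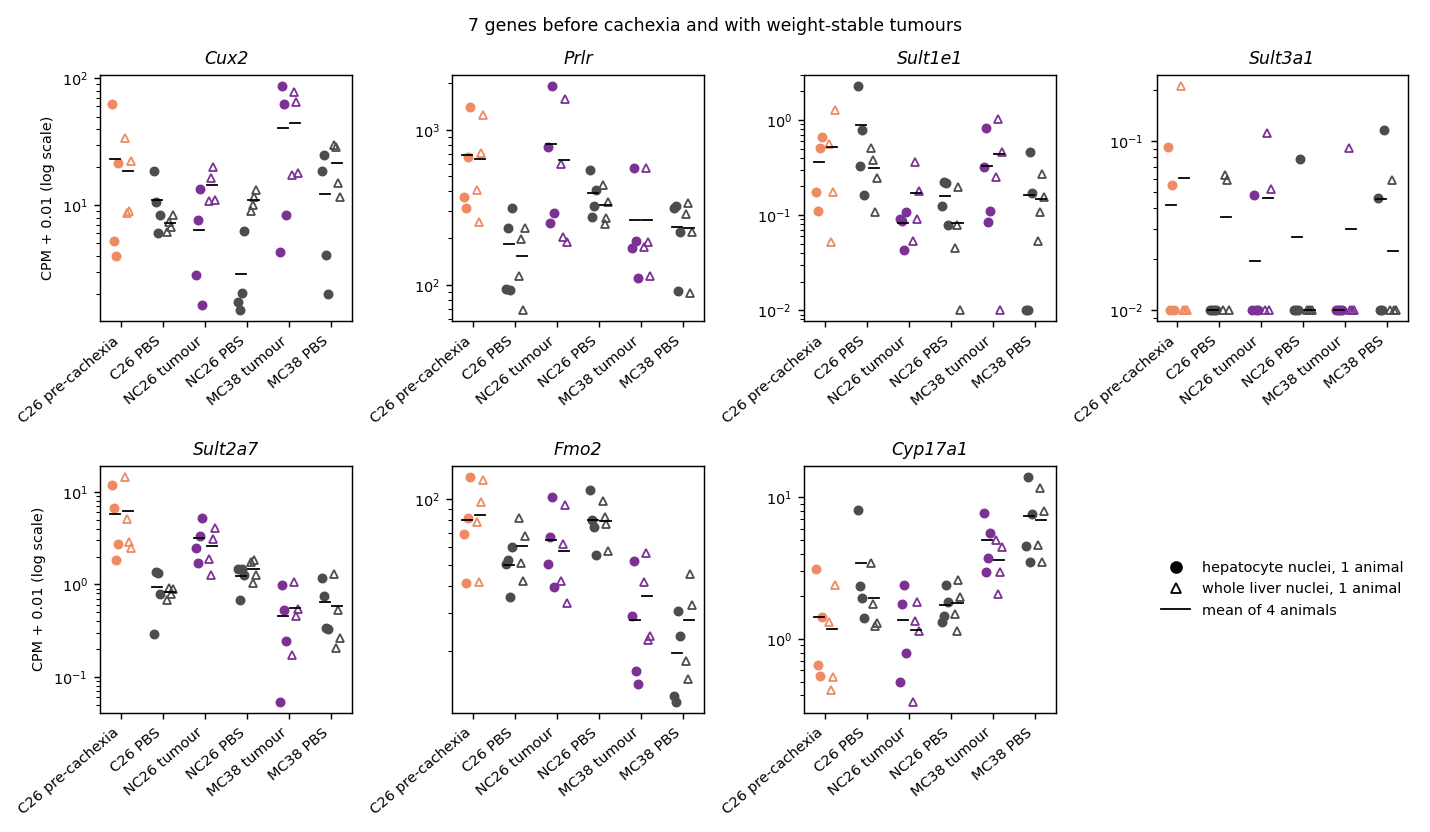
Level of each gene in CPM plus 0.01 on a log axis in C26 pre-cachexia, NC26 tumour and MC38 tumour animals, each left of its PBS group, with 1 point per animal, filled circles for hepatocyte nuclei, open triangles for whole liver nuclei and bars for the mean of 4 animals. Sult2a7 and Prlr were higher in pre-cachexia than in C26 PBS animals, and 1 NC26 tumour animal reached 1924 CPM for Prlr.

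The difference between the NC26 and MC38 effects was not called by edgeR for any of the 7 genes, and 0% of all genes were called, in either kind of nuclei. Of the 7 genes 0 had an unadjusted p under 0.05, and DESeq2 called 0 of the 7 and 4 of all genes. For Sult2a7 the difference was 1.94 (SE 0.99, 95% interval -0.08 to 3.96) in hepatocyte nuclei, for Prlr 0.92 (SE 0.77, -0.65 to 2.49) and for Cux2 -0.56 (SE 1.49, -3.59 to 2.47). These intervals are wide, and a p that misses the threshold does not show that the tumours acted alike.

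The resting level of 2 genes differed between the strains. PBS animals of the NC26 cohort (BALB/c) were set against PBS animals of the MC38 cohort (C57BL/6N), cohorts without cachectic animals. Fmo2 had 110.0, 80.6, 74.4 and 55.1 CPM in hepatocyte nuclei of BALB/c animals, against 12.4, 11.7, 30.4 and 23.5 CPM in C57BL/6N animals. The groups did not overlap, and the log2 difference was 2.04 (SE 0.55, adjusted p = 0.00594, edgeR). Cyp17a1 went the other way, with 1.30, 1.44, 2.38 and 1.81 CPM in BALB/c and 4.53, 13.9, 3.47 and 7.59 CPM in C57BL/6N animals. Its log2 difference was -2.10 (SE 0.69, adjusted p = 0.0232, edgeR), again without overlap. Cyp17a1 was not called without BALB/c animal 1 or 2 (adjusted p = 0.0674 and 0.0574) or without C57BL/6N animal 2 (adjusted p = 0.114, edgeR). These 2 of 7 genes compare with 28.2% of all genes called in hepatocyte and 18% in whole liver nuclei, so the share in hepatocyte nuclei is near that of all genes.

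In whole liver nuclei the same 2 genes were called, Fmo2 at 1.52 (SE 0.49, adjusted p = 0.0300) and Cyp17a1 at -1.98 (SE 0.61, adjusted p = 0.0228, edgeR), and each call depended on single animals. Fmo2 was not called without any of BALB/c animals 1, 2 and 3 (adjusted p = 0.0733, 0.0546 and 0.052) or C57BL/6N animals 1, 2 and 4 (0.0886, 0.0987 and 0.0516, edgeR). Cyp17a1 was not called without BALB/c animal 1 or 2 (adjusted p = 0.0619 and 0.0719) or C57BL/6N animal 2 or 4 (0.088 and 0.0516, edgeR). With all 8 PBS animals of each strain the log2 differences in hepatocyte nuclei were 1.74 for Fmo2 and -1.73 for Cyp17a1. Cux2 was then called lower in BALB/c as well (-2.51, adjusted p = 0.0092 in hepatocyte nuclei and -2.10, adjusted p = 7.49e-04 in whole liver nuclei), a value that takes in the high 8025 PBS animal 4. In the NC26 and MC38 cohorts alone each strain is 1 cohort, so strain and cohort cannot be told apart there.

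**Figure D4:**
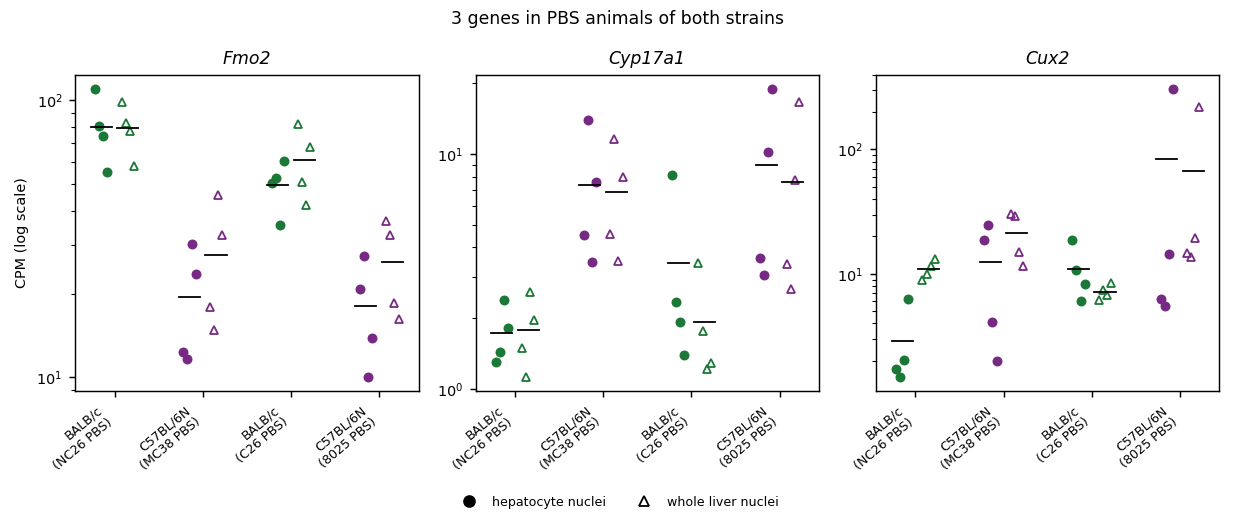
Level of Fmo2, Cyp17a1 and Cux2 in CPM on a log axis in PBS animals, with BALB/c in green left of C57BL/6N in purple for each pair of cohorts, 1 point per animal, filled circles for hepatocyte nuclei, open triangles for whole liver nuclei and bars for the mean of 4 animals. In hepatocyte nuclei Fmo2 lay at 55.1 to 110.0 CPM in NC26 PBS animals and at 11.7 to 30.4 CPM in MC38 PBS animals, and Cyp17a1 lay at 1.30 to 2.38 CPM and at 3.47 to 13.9 CPM.

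The next comparison set the 2 kinds of nuclei of the same animals side by side. Across the 16 PBS animals no gene was called between hepatocyte and whole liver nuclei with the 2 libraries of an animal treated as unrelated, while 50.9% of all genes were (edgeR; 0 of the 7 had an unadjusted p under 0.05, and DESeq2 called 0). With the animal as a block, which the shared animal justifies, 4 of the 6 that passed the filter in that fit were called (Sult3a1 did not pass it), beside 66.6% of all genes tested, so the members' share is that of all genes. Cyp17a1 was higher in hepatocyte than in whole liver nuclei (log2 difference 0.38, adjusted p = 8.19e-04, higher in 10 of 16 animals) and so was Prlr (0.24, adjusted p = 1.71e-04, 11 of 16). Cux2 was lower in hepatocyte nuclei (-0.67, adjusted p = 0.00717, lower in 13 of 16 animals), and Fmo2 slightly lower (-0.17, adjusted p = 0.00676, 14 of 16). The counts of animals, here and below, compare CPM scaled within each kind of nuclei. The fits scale both kinds together, so these counts do not describe the fitted differences exactly.

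In cachectic animals Cux2 was higher in hepatocyte than in whole liver nuclei in 8 of 8 animals, at 359.8, 358.9, 843 and 675 CPM against 178, 157, 371 and 481 CPM in the C26 animals. Cyp17a1 was also higher in 8 of 8. None of the 7 met the edgeR call, 0 had an unadjusted p under 0.05 and DESeq2 called 0 in these contrasts within the C26 or the 8025 cachectic animals (29.8% and 25.8% of all genes did) with the 2 libraries of an animal treated as unrelated. With the animal as a block, a setting chosen after seeing the data, 5 of 7 were called in C26 animals (55.6% of all genes) and 5 of 7 in 8025 animals (60.7%). In both they were Cux2, Sult1e1, Fmo2, Cyp17a1 and Prlr, each higher in hepatocyte nuclei, with log2 differences of 1.11 and 0.60 for Cux2 and of 0.34 and 0.63 for Cyp17a1. These contrasts are given as a description. In bulk nuclei, fewer cells that express a gene and less RNA per cell cannot be told apart.

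The wider group of growth hormone dependent genes was followed in lists chosen with earlier results of these data known. Of 26 further female-biased or growth hormone repressed genes tested in hepatocyte nuclei, 9 rose and 1 fell in C26 cachectic animals, at a median of 0.87 on the log2 fold change scale, and 7 rose and 3 fell in 8025 cachectic animals, with a median of 0.20. The medians of all genes tested were 0.00 and -0.02, and 22.2% and 29.3% of all genes were called in either direction. Slc22a26, an organic anion transporter gene, rose 25.4-fold in C26 cachectic animals (11.5 against 0.440 CPM in PBS animals) and 44.7-fold in 8025 cachectic animals (31.5 against 0.650 CPM in PBS animals; edgeR). The 1 that fell in C26 animals was Ntrk2, and those that fell in 8025 animals were Lifr, Hamp2 and Cyp2a4, named after their values were seen.

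Of 25 male-biased genes that depend on growth hormone pulses, 18 fell and the other 7 were not called in C26 cachectic animals (median log2 fold change -2.15), and 18 fell in 8025 cachectic animals (median -2.88). The major urinary protein gene Mup21 fell to 1.52 CPM in C26 cachectic animals, against 109 CPM in PBS animals, and the organic anion transporter gene Slco1a1 to 33.4 against 967 CPM. At pre-cachexia, where 7.72% of all genes were called, 3 of the 25 fell, Mup21, Mup3 and Mup20, and 0 of the 26 female-biased or repressed genes were called by edgeR, while 4 had an unadjusted p under 0.05 and DESeq2 called 2. In NC26 and MC38 tumour animals edgeR and DESeq2 called 0 of either list. Of the 26, 2 and 1 had an unadjusted p under 0.05 there, and of the 25, 1 and 5.

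**Figure D5:**
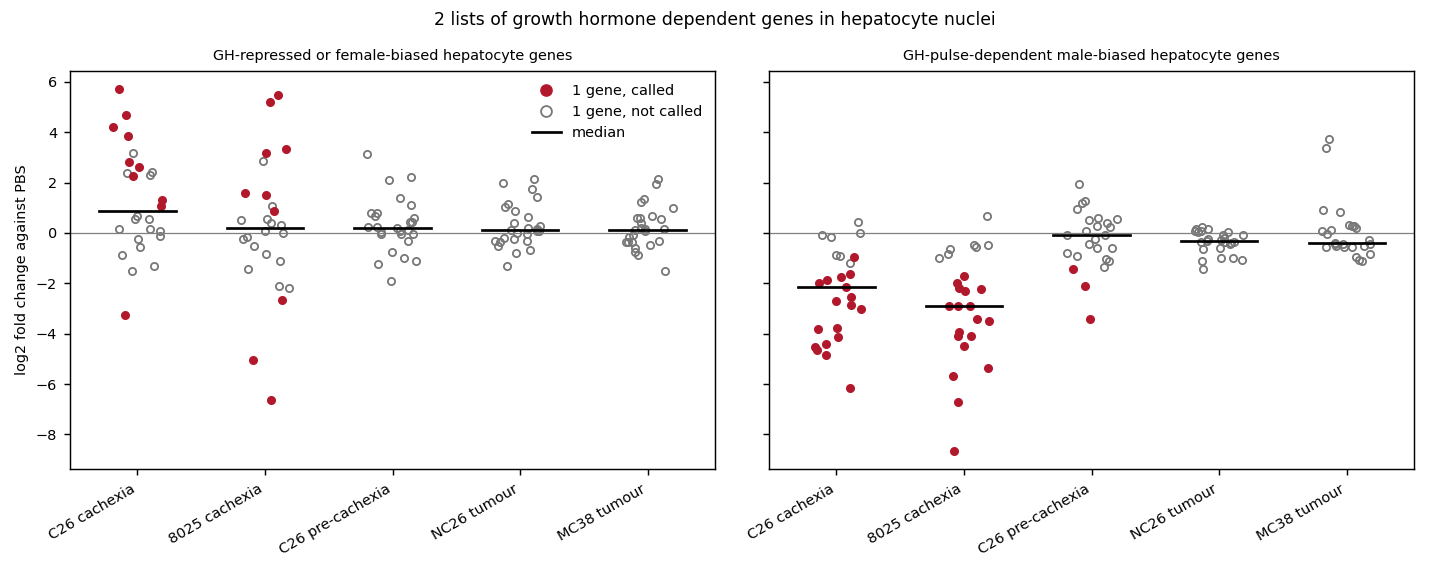
Log2 fold change against PBS in hepatocyte nuclei for 26 further growth hormone repressed or female-biased genes (left) and 25 male-biased genes (right), with 1 point per gene, red where called, and a line at the median. In the right panel 18 genes lay low and called in each cachexia model, whereas the left panel spread to both sides of 0.

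Among 14 genes of growth hormone signalling, 3 rose and 2 fell in C26 cachectic animals (22.2% of all genes called), and 4 rose and 3 fell in 8025 cachectic animals (29.3%). Stat3, a transcription factor of cytokine signalling, stood at 433 CPM against 141 CPM in C26 animals and at 460.4 CPM against 156 CPM in 8025 animals (3.07-fold and 2.94-fold). Socs3, an inhibitor of JAK kinases, rose 6.48-fold and 10.7-fold. Socs3 and Stat3 were also called higher at pre-cachexia, 7.23-fold and 2.06-fold. The receptor gene Ghr, named after its values were seen, fell 2.12-fold in C26 and 2.29-fold in 8025 cachectic animals and was not called at pre-cachexia. Among 17 regulators of sex-biased liver genes, 2 rose and 1 fell in C26 animals, a share below the 22.2% of all genes; Esr1, the gene of oestrogen receptor alpha, rose 2.30-fold to 729 CPM.

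Other sulfotransferase and steroid synthesis genes were called in both directions. Of 8 other sulfotransferase-related genes tested, 3 rose and 2 fell in C26 cachectic animals, and 3 rose and 3 fell in 8025 cachectic animals, beside 22.2% and 29.3% of all genes called here and for the steroid genes. Sult2a8, a bile acid sulfotransferase of the male mouse liver, fell to 275 CPM against 1760.4 CPM in C26 and to 42.7 against 1615 CPM in 8025 animals, whereas Sult1d1 rose 5.10-fold and 2.20-fold. Fmo4, a flavin monooxygenase gene, rose 3.13-fold in C26 cachectic animals (54.6 against 17.4 CPM). Of 13 other genes of steroid hormone synthesis, 1 rose and 4 fell in C26 animals and 1 rose and 5 fell in 8025 animals. Srd5a1, a steroid 5-alpha-reductase gene, fell 4.12-fold in C26 animals, and Hsd3b2, a 3-beta-hydroxysteroid dehydrogenase gene, fell 2.31-fold in C26 and 3.57-fold in 8025 animals.

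Some markers of other cells moved with cachexia in the hepatocyte libraries. The sum over 10 macrophage markers was 68.9 to 102 CPM in C26 cachectic, 75.3 to 92.1 CPM in pre-cachexia and 42.6 to 70.7 CPM in PBS animals, and 107.9 to 143 CPM in 8025 cachectic against 42.9 to 51.2 CPM in 8025 PBS animals. Of the 10, 5 rose in C26 cachectic, 6 in pre-cachexia and 7 in 8025 cachectic animals. Beside these and the marker counts below, 22.2%, 7.72% and 29.3% of all genes were called in these comparisons. Of 3 tested neutrophil and monocyte markers, 2 rose in C26 and 3 in 8025 cachectic animals. The sum over the 8 in the table was 2.19 to 4.15 CPM in C26 cachectic against 1.08 to 2.28 CPM in C26 PBS animals. In 8025 animals it was 11.1 to 15.3 CPM with cachexia against 0.969 to 1.82 CPM with PBS. In 8025 animals 5 of 8 cholangiocyte markers also rose, and their sum was 250.9 to 635 CPM with cachexia against 249.8 to 320.1 CPM with PBS. The sum over 10 endothelial markers was 282 to 406 CPM in C26 cachectic against 178 to 298 CPM in C26 PBS animals. In 8025 animals it was 196 to 287 CPM with cachexia against 121 to 191 CPM with PBS. The sum over 10 stellate cell markers overlapped PBS animals in both models, as did that over 8 T and NK cell markers. In C26 animals the cholangiocyte and B cell sums overlapped too. The sum over 6 B cell markers was 13.2 to 17.4 CPM in 8025 cachectic against 10.5 to 12.6 CPM in 8025 PBS animals. The sum over the 7 hepatocyte markers was 13450 to 23910 CPM in C26 cachectic animals, against 10900 to 15030 CPM in C26 PBS animals, and 8799 to 12550 CPM in 8025 cachectic animals, against 11980 to 12710 CPM in 8025 PBS animals. The part of these cells in the levels of the 7 genes was not tested.

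The 7 genes fell into a looser pattern over the 18 groups. As a description over group means of log2(CPM + 0.5), Pearson r among Cux2, Sult1e1, Sult3a1 and Cyp17a1 was 0.808 to 0.889. Among Sult2a7, Fmo2 and Prlr it was 0.766 to 0.839. Between these sets it ranged from 0.0817 for Sult2a7 with Cyp17a1 to 0.772 for Sult1e1 with Fmo2, so the sets are not separate. The groups share animals between the 2 kinds of nuclei. The genes most like Cux2 were Cd9 (r 0.957), Cdkn1a and Nipal1. Those most like Sult1e1 were Gadd45b (r 0.987), Atp6v0a4 and Lppr1, and those most like Sult3a1 were Igdcc4 (r 0.971), Slc22a26 and Cacna1b. Ermard (r 0.928) was most like Sult2a7, Fbxl17 (r 0.959) most like Fmo2, Celsr1 (r 0.957) most like Cyp17a1 and B3galt1 (r 0.962) most like Prlr.

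Ranked by mean level over the 9 groups of hepatocyte nuclei, C26 cachectic animals were the highest for 6 genes and 8025 cachectic animals for Sult3a1. Second place went to 8025 cachectic animals for Cux2, Sult1e1, Fmo2 and Cyp17a1, to pre-cachexia animals for Sult2a7 and to NC26 tumour animals for Prlr. For each of the 7 genes every pair of neighbours in that order overlapped in range. For Cux2 the 8025 cachectic and 8025 PBS groups did so only through PBS animal 4, at 307 CPM. In the order for whole liver nuclei some neighbours did not overlap. They were C26 cachectic over pre-cachexia animals for Fmo2 (207 to 654 against 41.7 to 122 CPM), 8025 cachectic over pre-cachexia animals for Sult1e1 (1.81 to 13.2 against 0.0423 to 1.27 CPM) and NC26 PBS over C26 PBS animals for Cux2.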

How the data were processed

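RNA of bead-bound hepatocyte nuclei and of whole liver nuclei was sequenced from 36 mice with a stranded kit, 50-base paired-end reads and no poly-A selection, per the labels' protocols. The authors deposited raw read counts per gene for 72 libraries; the submitters' processing notes name mm10, STAR 2.4.2a and DESeq2 1.24.0 without their roles, and the counting strand setting is not given in the sources used here. The 7 genes and all gene lists were chosen with earlier results of these data known. The 7 are named throughout; of each other list the text names the 2 called genes with the largest change in the cachexia contrasts (mean of at least 1 CPM, no overlap between groups), those with the 2 smallest p elsewhere, and others where it says so; 1 gene that this rule names is not reported here.

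Counts were fitted with edgeR 4.0.16 (quasi-likelihood test, TMM, filterByExpr; R 4.3.3), with 9 groups per kind of nuclei in 1 fit and all 18 for the comparison of nuclei, and a gene was called when its p, adjusted by Benjamini-Hochberg over all genes tested, was under 0.05. CPM values use TMM library sizes of the fit of their own kind of nuclei. P-values set a difference against the spread between libraries, estimated over all groups of a fit. In the fit of both kinds of nuclei the 2 libraries of an animal count as independent, unless the animal is a block. Depth is given in the report, and counting intervals are exact 95% intervals. Alternatives were DESeq2 1.42.0, RLE size factors, no filter, totals without 5 genes with rRNA-like reads, fits of only the groups compared, a replicate block, all PBS animals of a strain, and leaving out each animal; the block by animal in cachectic animals was added after seeing the data. The fits were tested on simulated data. Replicate numbers were not treated as pairs in the main fits, since in no comparison did all 4 same-numbered pairs correlate above 0.1. For C26 pre-cachexia against PBS in hepatocyte nuclei 3 of the 4 did (r 0.072 to 0.395). This check cannot exclude that animals were paired there. The 2 libraries of an animal are paired by the animal that the labels name. Of 36 hepatocyte libraries, 34 correlated best with their own animal's whole liver library (r -0.191 to 0.822 over all 36, median 0.539). Promoters and positions came from RefSeq (GRCm38.p6) and the files' build mm10.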

Additional observations from a re-analysis of the deposited data

Results flagged for a closer look

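In 11 of 126 sets of 4 values, each set being 1 gene in 1 group, 1 value lay far from the other 3. The cut gives this in about 5% of sets of normally distributed values. CPM of genes with few counts are not so distributed, and sets share animals, so no excess over chance is read from this count. Cux2 was 306.9 CPM in hepatocyte nuclei and 220.8 CPM in whole liver nuclei of 8025 PBS animal 4, where the other 3 animals had 5.55 to 14.5 and 13.7 to 19.6 CPM. It was 6.26 CPM in hepatocyte nuclei of NC26 PBS animal 4. Cyp17a1 was 8.10 CPM in hepatocyte nuclei of C26 PBS animal 1, against 1.39 to 2.35 CPM in the other 3. Prlr was 570.5 CPM in whole liver nuclei of MC38 tumour animal 2.

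The other 6 were Sult3a1 values in groups where the other 3 animals had no count, a pattern that always meets the cut. They were 0.0380 CPM in hepatocyte nuclei of NC26 tumour animal 2 and 0.0684 CPM in those of NC26 PBS animal 4. In whole liver nuclei they were 0.202 CPM in C26 pre-cachexia animal 1, 0.0804 CPM in MC38 tumour animal 1, 0.0492 CPM in MC38 PBS animal 2 and 0.261 CPM in 8025 PBS animal 1.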

How the results depend on the processing

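Of 890 values of single genes under the named settings, 2 were no longer called, 7 were newly called and 0 reversed; with 1 animal left out, 1368 of 1400 held. This tally reads calls only where a p is given. There a value not called in the main fit holds by staying uncalled, so the tally favours agreement. The cachexia values, given without p, are read by direction and size, within a tolerance set by their SE. Changes in their calls show in the counts that follow. With only the groups compared, 0 of the 7 genes were called at C26 pre-cachexia in hepatocyte nuclei and 2 in 8025 cachectic whole liver nuclei. For the C26 minus 8025 difference in whole liver nuclei, 0 were called with the replicate block and 4 with DESeq2. With the animal as a replicate block, 4 of 6 tested were called between hepatocyte and whole liver nuclei of PBS animals, and 5 of 7 each in C26 and 8025 cachectic animals; over all genes 9033, 7500 and 8184 were called. The replicate block moved no other count of the 7 by over 1.5 times. The cause was not tested.

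With 1 animal left out, the count of called genes was 3 to 5 (8025 cachexia, hepatocyte) and 2 to 5 (whole liver), 1 to 2 and 0 to 2 (strain), 1 to 2 in both (pre-cachexia), 6 to 7 (C26 cachexia, whole liver) and 0 to 4 (C26 minus 8025, whole liver). Counts over all genes moved by over 1.5 times with DESeq2, to 143 and 199 (NC26), 6 and 14 (MC38), 4 and 4 (NC26 minus MC38) and 355 (C26 minus 8025, hepatocyte). With only the groups compared they were 339 (pre-cachexia), 1944 (C26 cachexia), 607 (C26 cachexia against pre-cachexia) and 47 (C26 minus 8025) in hepatocyte nuclei, 2981 (8025 cachexia), 1061 (C26 cachexia against pre-cachexia) and 515 (C26 minus 8025) in whole liver nuclei, and 2396 between the nuclei of 8025 cachectic animals. With all 8 PBS animals of each strain 5443 were called in whole liver nuclei. Low counts limit Sult3a1 and Sult1e1 outside cachexia.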
